A study of Mus musculus with 2 samples.

Results

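The genes described here are 10 genes of MHC class I and class II antigen presentation, chosen by name: H2-K1, H2-D1, B2m, Tap1 and Tap2 for class I, and H2-Aa, H2-Ab1, H2-Eb1, Cd74 and Ciita for class II. All 10 were found by matching gene identifiers to GENCODE symbols, among 43346 annotated genes in each table. They were measured by paired-end sequencing of poly(A) RNA from primary megakaryocyte-erythroid progenitors (MEP), cells from which red cells and platelets descend. The series has 1 group of 2 libraries, numbered in the labels as biological replicates 1 and 2, from female C57BL/6J mice aged 5 weeks. No treatment, transgene or other genotype is labelled, and no sample of another cell type was analysed here. The labels describe the cells by lineage markers, CD16/32 and lack of CD34, and give both libraries the same donor identifier, so the spread between them may be that of preparation rather than of animals. With 2 libraries of 1 group there is no comparison of conditions and no p-value is given.

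MHC class I molecules present peptides made inside the cell to CD8 T cells. A polymorphic heavy chain pairs with beta-2-microglobulin, and peptides cut by the proteasome are pumped into the endoplasmic reticulum by the TAP transporter and loaded there. MHC class II molecules are dimers of an alpha and a beta chain that assemble on the invariant chain, lose it in endosomes and present peptides from outside the cell to CD4 T cells. Class I is carried by nearly all nucleated cells, whereas class II is best known from dendritic cells, B cells and macrophages. The genes of both classes share promoter elements, the X and Y boxes, bound by the RFX and NF-Y complexes. These complexes recruit the coactivators Nlrc5, for class I, and Ciita, for class II.

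Letters typical of these elements were searched in the promoter sequences of the members, which are shown because class I and class II genes of the same cells are set side by side below. RefSeq promoter entries (build GRCm38.p6, from 250 bases before to 50 after the start) matched 6 of the 10 members: H2-K1, H2-D1, B2m, Tap1, H2-Aa and H2-Eb1. Tap2, H2-Ab1, Cd74 and Ciita had none in the table used. For H2-D1 the RefSeq start lies 364 bases from the GENCODE gene start, so its matching bases fall inside the GENCODE first exon and are not printed. The other 4 stretches are 120 bases each, read 5′ to 3′ on the strand of the gene, and end 10 bases after the ATTGG letters. Capitals mark TGANG and ATTGG, the letters used here for the X2 part of the X box and for the Y box, and in the class I genes also GGGATTCCC, an NF-kappaB type sequence, and GAA followed after 2 or 3 bases by GAAA, an interferon response type sequence, which reads TTTC to TTC where it lies on the opposite strand.
H2-K1, chr17:34000349-34000468, minus strand: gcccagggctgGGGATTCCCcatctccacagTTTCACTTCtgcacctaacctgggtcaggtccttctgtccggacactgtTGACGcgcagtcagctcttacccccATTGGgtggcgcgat
B2m, chr2:122147529-122147648, plus strand: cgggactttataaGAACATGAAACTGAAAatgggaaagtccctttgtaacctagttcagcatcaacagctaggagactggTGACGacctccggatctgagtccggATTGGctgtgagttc
H2-Aa, chr17:34287857-34287976, minus strand: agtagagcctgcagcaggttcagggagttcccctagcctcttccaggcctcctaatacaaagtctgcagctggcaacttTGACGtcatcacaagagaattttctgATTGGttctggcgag
H2-Eb1, chr17:34305703-34305822, plus strand: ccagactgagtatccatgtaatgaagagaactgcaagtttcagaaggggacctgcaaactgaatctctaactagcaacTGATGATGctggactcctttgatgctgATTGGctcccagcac

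TGANG followed by ATTGG, with 19 to 22 bases between them, was present in 5 of the 6 entries. It occurred on either strand in 1.19% of 32851 RefSeq promoters of the same length. The gap was 20 bases in H2-K1, H2-D1 and B2m, 21 in H2-Aa, and 22 or 19 in H2-Eb1, whose TGATGATG holds overlapping copies of TGANG. The letters and the gap were chosen with these sequences in view, so the count describes the members only. GGGATTCCC was present in H2-K1 and H2-D1, against 0.353% of promoters, at 110 and 170 bases before the RefSeq start. The spaced GAA and GAAA pair was in H2-K1 and H2-D1 on the minus strand and in B2m on the plus strand, where it occurred as overlapping copies, against 14.3% of promoters. Neither of these was found in H2-Aa or H2-Eb1. In Tap1 the search found ATTGG alone, on the minus strand, a word that 37.4% of promoters hold on either strand.

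Values below are TPM, an abundance per unit of transcript length with the same sum in each library, and are given with the mean and standard deviation of the 2 libraries (n = 2). The 2 libraries hold 79539457 and 65305321 estimated counts. All 10 members reached a TPM of 1 or more in both libraries, as did 46.9% of the 21474 protein-coding genes. The labelled cell type was checked against marker genes. All 8 megakaryocyte-erythroid markers were above that level in both libraries, with a summed TPM of 942 in replicate 1 and 1396 in replicate 2. The 5 markers of granulocyte-monocyte progenitors, a neighbouring cell type with CD16/32, summed to 30800 and 16973, which is 32.7 and 12.2 times the megakaryocyte-erythroid sum. Mpo, myeloperoxidase, and Prtn3, proteinase 3, were the 2 highest of them, with mean TPM of 8329 and 7892. Cebpe was the lowest of them at 138 and 125. The megakaryocyte-erythroid markers ranged from Gata1 at 28.5 and 45.8 to Zfpm1 at 417 and 681. The ratio of the sums therefore depends on which genes were listed and gives no shares of cells. Erythroid markers of the label were present, and the granulocytic genes listed had the larger sum in both libraries. In bulk RNA, a few cells with much RNA of a gene and many cells with little cannot be told apart.

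The class I heavy chains led the members. H2-K1, the classical heavy chain K (chr17:33996017-34000347, minus strand, GRCm38 as for all positions here), had a TPM of 2100 in replicate 1 and 2770 in replicate 2 (2435 ± 474, SD, n = 2), which ranked 62nd and 47th among protein-coding genes. H2-D1, the classical heavy chain D (chr17:35262730-35267499, plus strand), had 867 and 955 (911 ± 62.3). B2m, the light chain shared by all class I molecules (chr2:122147686-122153083, plus strand), had 233 and 205 (219 ± 19.7). H2-K1 was thus the highest member in each library, and B2m was below both heavy chains in each.

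The transporter genes lay below both heavy chains. Tap1, a subunit of the TAP peptide pump (coding transcript Tap1-201 at chr17:34187802-34197219, plus strand), had a TPM of 143 and 142 (143 ± 0.856). Tap2, the other subunit (coding transcript Tap2-201 at chr17:34203527-34216321, plus strand), had 222 and 297 (259 ± 52.9). Tap2 exceeded Tap1 in both libraries, by 1.55 times in replicate 1 and 2.09 times in replicate 2. Tap1 overlaps Psmb9 on the opposite strand, which had a TPM of 72.9 and 67.1. No source used here says whether counting used strand, so reads of that overlap may not be separated.

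Class II genes had a lower median level and a wider range. Cd74, the invariant chain that holds the peptide groove until the endosome (chr18:60803848-60812652, plus strand), was the highest of them at 389 and 337 (363 ± 36.5). H2-Ab1, the beta chain of I-A (chr17:34257689-34269419, plus strand), had 264 and 283 (274 ± 13.3). H2-Aa, the alpha chain that pairs with it (chr17:34282744-34287823, minus strand), had 31.5 and 35.0 (33.3 ± 2.50). H2-Eb1, the beta chain of I-E (chr17:34305867-34316674, plus strand), was close to H2-Aa at 35.2 and 39.5 (37.4 ± 3.04). Ciita, the coactivator (chr16:10480059-10528418, plus strand), was lowest at 1.69 and 1.81 (1.75 ± 0.0849), from 573 and 489 estimated counts. Ciita overlaps Dexi on the opposite strand, which was at 24.9 and 22.7. Cd74 was above every value of B2m and Tap2, H2-Ab1 was close to Tap2, and H2-Aa and H2-Eb1 lay far below H2-Ab1 in both libraries.

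Ordered by mean TPM the members ran H2-K1, H2-D1, Cd74, H2-Ab1, Tap2, B2m, Tap1, H2-Eb1, H2-Aa and Ciita. H2-Ab1 and Tap2 exchanged places between the libraries, as did Tap2 and B2m, so these neighbours did not differ beyond their spread. H2-Eb1 was above H2-Aa in both libraries by a gap smaller than the sum of their standard deviations. The other 6 neighbouring pairs kept their order with a gap larger than that sum.

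**Figure D1:**
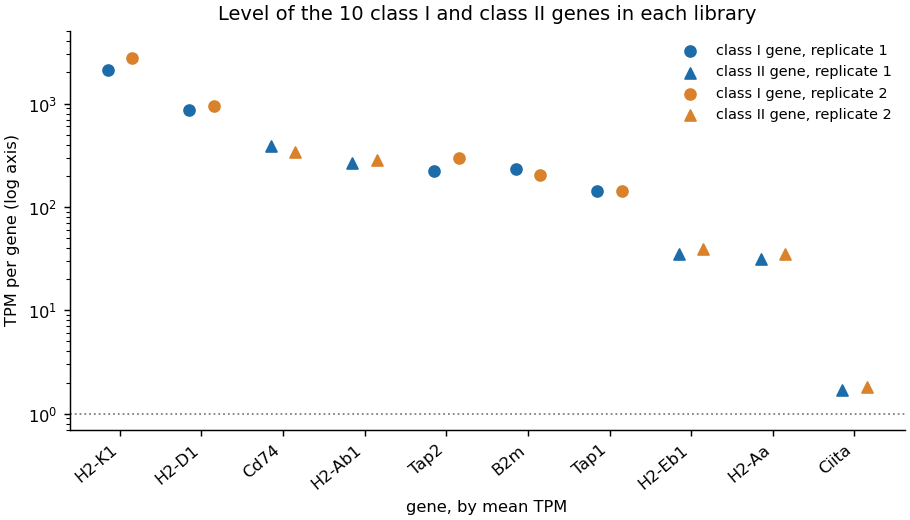
TPM of each of the 10 genes (log axis) in replicate 1 (blue) and replicate 2 (orange), class I genes as circles and class II genes as triangles, with a dotted line at a TPM of 1. H2-K1 lies at 2100 and 2770 and Ciita at 1.69 and 1.81, and the 2 points of each gene lie close together.

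The median of log2(TPM + 1) was higher over the 5 class I genes than over the 5 class II genes by 2.69 in replicate 1 and 2.88 in replicate 2. From the mean levels the difference was 2.76 (SD between libraries 0.133), or 6.78-fold. At these levels the median genes were Tap2, at 259, and H2-Eb1, at 37.4. The class II genes include their coactivator Ciita, while Nlrc5, that of class I, is not a member. The difference thus depends on the members chosen, which the SD does not cover. Summed TPM was 3565 and 4369 for class I and 721 and 696 for class II. The ranges of the classes overlapped, since Cd74 and H2-Ab1 exceeded Tap1 in both libraries. Between the chains alone (H2-K1, H2-D1 and B2m against H2-Aa, H2-Ab1 and H2-Eb1) the log2 difference was 4.57. The genes are not replicates, so this is a description of their levels and carries no test.

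Several partner genes were unequal and others were not. Of 24 gene pairs of the pathway, 17 were called different. The share called among pairs of unrelated genes was not measured, so this count describes these pairs only. A call required the same direction in both libraries, a mean ratio of TPM above 2-fold and separate TPM intervals in each library. These intervals are the deposited ranges of quantification error. For ratios in counts, over coding transcripts or per kilobase, separate intervals were not required. H2-Ab1 exceeded its partner H2-Aa by 8.38 times in replicate 1 and 8.07 times in replicate 2, and H2-Eb1 by 7.50 and 7.16 times. The H2-Ab1 to H2-Aa ratio was alike in counts without length correction, at 9.28-fold. Cd74 exceeded H2-Aa by 12.3 and 9.62 times, while Cd74 and H2-Ab1 differed by 1.47 and 1.19 times and were not called. H2-Aa and H2-Eb1 were not called either, with H2-Eb1 higher by 1.12 and 1.13 times. So the beta chain of I-A stood with the invariant chain, and its alpha chain stood with H2-Eb1.

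On the class I side H2-K1 exceeded B2m by 9.03 and 13.5 times and H2-D1 exceeded B2m by 3.73 and 4.67 times. In counts the mean log2 ratio of B2m to H2-D1 was −3.50, against −2.06 in TPM. Summed over all 16 H2 heavy chain genes measured here, heavy chain TPM was 16.1 times that of B2m in replicate 1 and 23.8 times in replicate 2, and in CPM 28.3 and 40.6 times. H2-K1 and H2-D1 made up 79.1% and 76.6% of that sum. H2-K1 exceeded H2-D1 by 2.42 and 2.90 times in TPM, but only 1.19-fold in counts, from 123311 and 126694 counts of H2-K1 and 112128 and 98345 of H2-D1. This ratio turned on the length given to H2-K1. Per kilobase of the longest coding transcript of each gene, a measure added after the transcript values were seen, it was 0.64 on the log2 scale against 1.41 in TPM and was no longer called.

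The transcript tables show which models carry these lengths. Of the 7 members with several annotated transcripts, 6 had the same leading transcript by share of TPM in both libraries. B2m, H2-Eb1 and Ciita have a single transcript each in these tables. The GENCODE M21 gene spans of Ciita and H2-Eb1 reach beyond that transcript, so forms outside it were not measured separately. H2-D1-202 held 99.5% and 99.3% of H2-D1 TPM and H2-Ab1-201 held 99.6% and 99.4% of H2-Ab1. H2-Aa-201 held 86.6% and 84.7% of H2-Aa, and H2-Aa-204, a shorter coding model, 13.2% and 13.9%. These genes were thus carried by full coding models. In H2-K1 the leading model was H2-K1-206, with 70.3% and 71.5% of TPM and 57.9% and 60.1% of counts. It has 4 exons and is 871 bases long in the tables, and GENCODE tags its end as not found. The complete 8-exon models H2-K1-205 and H2-K1-201, of 1570 and 1605 bases, held 21.6% and 20.1%, and 3.20% and 2.30%.

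Cd74 has a pair of coding forms of known interest. Cd74-202 differs from Cd74-201 by an extra exon of 192 bases, the exon that in the long form of the invariant chain adds a thyroglobulin type domain. Cd74-201 held 90.5% and 89.2% of Cd74 TPM and Cd74-202 held 9.44% and 10.8%. In TPM the short form was 352 and 301 and the long form 36.7 and 36.3. The short form was the more abundant in both libraries, and the long form differed little between them.

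In TPM the TAP genes were carried in large part by models that GENCODE calls retained intron and does not count as coding. In counts this held for Tap2 but not for Tap1. In Tap2, Tap2-202 held 73.4% and 78.3% of TPM and 92.6% and 92.7% of counts. Against the coding model Tap2-201 it starts downstream and keeps intron 6, of 162 bases (chr17:34212068-34212229), whole. Reads over that intron were not examined, so its retention in these cells was not tested. The coding model Tap2-201 held 2.57% and 3.23% of TPM. Tap2-204, a coding model of 378 bases whose end was not found, had a TPM of 53.3 and 54.8, which is most of the coding TPM of Tap2. In Tap1, Tap1-203, a retained intron model of 757 bases, led in replicate 1 with 41.9% of TPM and had 37.9% in replicate 2. The coding model Tap1-201 led in replicate 2 with 42.4% and had 40.8% in replicate 1. By counts Tap1-201 led in both libraries, with 57.7% and 57.2%. All coding models of Tap1 together held 80.7% and 82.5% of its counts, and its retained intron models 19.3% and 17.5%. Over coding models alone, an alternative added after seeing the data, Tap1 was at 79.0 and 83.7 and Tap2 at 59.1 and 64.4. In this measure the order of the TAP genes turned from that of gene TPM. Tap2 stayed higher in counts and per kilobase of the longest coding transcript, with log2 ratios of Tap1 to Tap2 of −0.99 and −0.77.

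**Figure D2:**
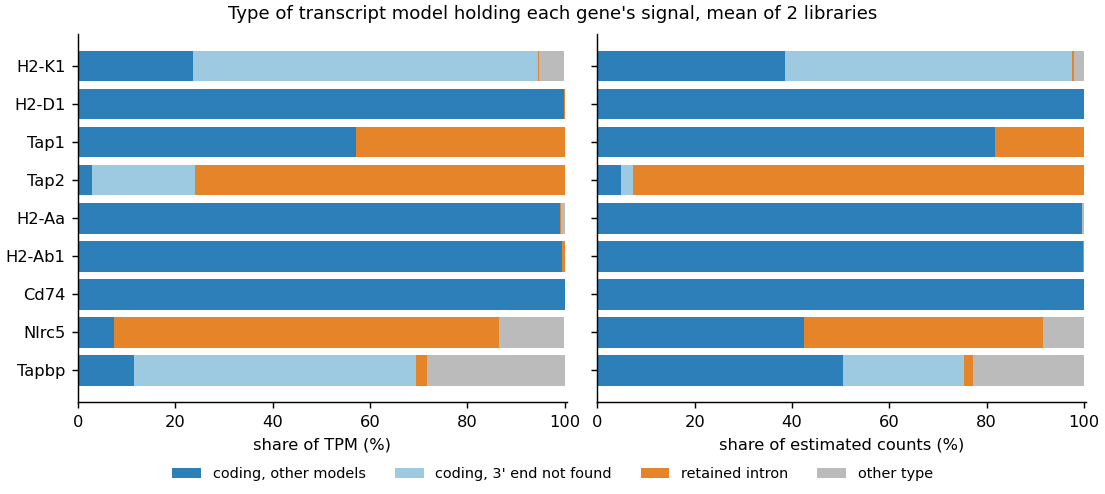
Share of each gene's TPM (left) and of its estimated counts (right), in percent, held by coding models, by coding models with no annotated end, by retained intron models and by other types, as the mean of the 2 libraries. H2-D1, H2-Aa, H2-Ab1 and Cd74 are nearly all coding, Tap2 is mostly retained intron in both panels, and Tap1, Nlrc5 and Tapbp shift towards coding models in counts.

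The coactivators were read in the same way. Nlrc5, the class I coactivator, was at 29.9 and 28.9 TPM and exceeded Ciita by 17.6 and 15.9 times. Nlrc5-206, a retained intron model of 735 bases, held 76.9% and 65.8% of it. Over coding transcripts alone Nlrc5 was at 2.20 and 2.16, beside 1.69 and 1.81 for Ciita, and the pair was no longer called, with a log2 ratio of 0.32. In counts Nlrc5 exceeded Ciita by 3.68-fold. A higher level of Nlrc5 than of Ciita thus held in direction under these measures, while its size ranged widely.

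Of 15 regulators, all 15 reached a TPM of 1 in both libraries, as did 46.9% of protein-coding genes. Spi1, the myeloid factor PU.1, was highest by mean TPM at 416 and 315, followed by Irf8, an interferon regulatory factor of myeloid and lymphoid cells, at 422 and 237. Among the RFX subunits, Rfxap was at 98.3 and 114, Rfx5 at 17.8 and 16.0, and Rfxank, the lowest of the regulators, at 8.15 and 9.61. Rfxap exceeded Rfx5 by 5.53 and 7.11 times in TPM, a call lost in counts and over coding transcripts. Rfx5 and Rfxank were not called. Creb1, a factor of the X2 box, was the next lowest by mean TPM at 10.8 and 13.1. Irf1 was at 37.9 and 31.8 and Irf2 at 19.1 and 17.0, within 2-fold of each other. Of the interferon gamma receptor chains, Ifngr1 was at 47.5 and 40.5 and Ifngr2 at 22.4 and 12.3. That pair was called in TPM, but in counts the mean log2 ratio was −0.15, in the opposite direction.

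For class I peptide supply and loading, 13 of 13 genes reached a TPM of 1 in both libraries, against 46.9% of protein-coding genes. The median TPM of the list was 85.2. Calr, the chaperone calreticulin, was highest at 1213 and 877, followed by Pdia3, a disulfide isomerase of the loading complex, at 984 and 779, and Tapbp, tapasin, at 793 and 748. Lnpep and Erap1, peptidases that trim peptides, were lowest at 1.65 and 2.25 and at 2.62 and 2.96. Calr exceeded its membrane-bound relative Canx, at 66.2 and 104, by 18.3 and 8.41 times. Tapbp exceeded the related Tapbpl by 31.4 and 30.3 times in TPM and 8.80-fold in counts, and Tapbp-203, a model of 413 bases whose end was not found, held 56.2% and 59.6% of Tapbp.

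The immunoproteasome subunits replace constitutive ones and change which peptides are cut. Psmb8 was at 482 and 481, above its constitutive counterpart Psmb5 at 156 and 162. Psmb10 was at 213 and 194, above Psmb7 at 17.6 and 13.5. Psmb9 was at 72.9 and 67.1, below Psmb6 at 188 and 211. The inducible subunit was therefore the higher of the pair in 2 of 3 pairs, and all 3 pairs were called in TPM. In counts without length the Psmb9 and Psmb6 pair fell within 2-fold, at a log2 ratio of −0.59. Of the proteasome activator subunits, Psme1 was at 218 and 249 and Psme2 at 82.9 and 81.5, a ratio of 2.63 and 3.05.

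Of 18 other class I heavy chain and class I-like genes, 11 reached a TPM of 1 in both libraries, against 46.9% of protein-coding genes. H2-Q6 was highest at 210 and 337, H2-Q7 had 185 and 311 and H2-Q4 had 180 and 252. These Qa genes are near copies of each other and of the classical genes, and the estimated counts depend on how shared reads were divided. Of the 50-base windows of H2-D1-202, 14.3% occur exactly in transcripts of other genes, and of H2-K1-205 9.07%. The other 8 members share under 1% or none. H2-Q1 and H2-M2 had no counts in either library, which allows up to 0.0377 and 0.0459 CPM (counts scaled to the library total). That limit is 3 counts per library and covers counting error only.

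Of 13 other class II and class II loading genes, 8 reached a TPM of 1 in both libraries, against 46.9% of protein-coding genes. H2-DMa and H2-DMb1, chains of the exchange factor that loads peptide onto class II, were highest at 57.8 and 55.5 and at 51.9 and 42.8. H2-DMb2, the other beta chain, was at 4.94 and 3.83. H2-DMa and H2-DMb1 were within 2-fold in TPM. In counts, per kilobase and over coding transcripts, where separate intervals were not required, they were called with H2-DMa higher. H2-Oa followed at 19.2 and 21.3, and its partner H2-Ob, with which it restrains H2-DM, was at 10.2 and 14.5, a pair called only per kilobase and over coding transcripts. Ifi30, a reductase of the endosome, was at 21.2 and 16.7. Cathepsin S (Ctss) was at 3.07 and 2.00 and cathepsin L (Ctsl) at 0.970 and 1.29, a pair called in the mean but 1.55-fold apart in replicate 2. H2-Ea-ps, the I-E alpha chain locus, had no counts in either library, and H2-Eb2 had 6 and 0. C57BL/6 mice carry the H2-b haplotype, in which the I-E alpha promoter is deleted, and here H2-Eb1 RNA was measured without RNA of its alpha partner.

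Of the 6 genes of the costimulation list, 3 reached a TPM of 1 in both libraries, near the 46.9% of protein-coding genes that did. Icosl was at 5.40 and 3.14, Cd83 at 2.68 and 2.82 and Cd274, which encodes the inhibitory ligand PD-L1, at 1.10 and 1.19. Cd40 was at 0.430 and 0.120 and both Cd80 and Cd86 had a mean of 0.300. The median TPM of this list was 0.72, beside 3.77 for the other class II genes and 85.2 for peptide supply and loading. Over all 5 lists 50 of 65 genes reached a TPM of 1 in both libraries, against 46.9% of protein-coding genes.

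**Figure D3:**
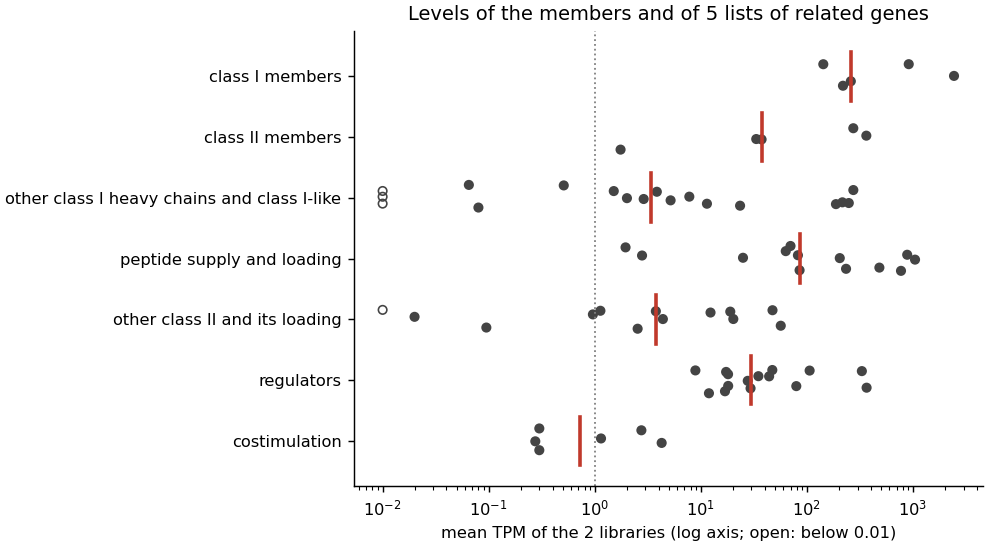
Mean TPM (log axis) of each gene of the member classes and of the 5 lists of related genes, with a red line at the median of the list and a dotted line at a TPM of 1. All peptide supply and regulator genes lie above a TPM of 1, and 3 of the 6 genes of the costimulation list lie below it. In both libraries 46.9% of protein-coding genes reach that level.

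Of the 17 pairs called in TPM, 12 were also called in counts without length, 14 over coding transcripts and 15 per kilobase of the longest coding transcript. Outside TPM these calls rest on direction and fold alone, without the intervals. The ratios among H2-Ab1, H2-Aa and H2-Eb1 kept their calls under all 4 measures.

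**Figure D4:**
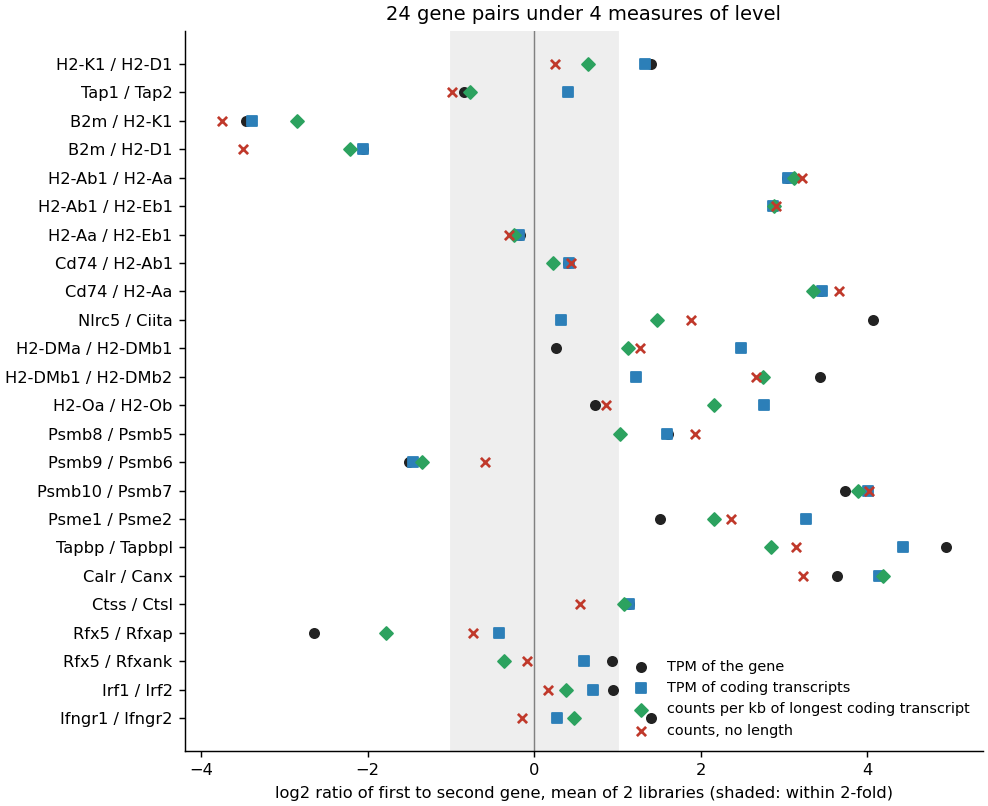
Mean log2 ratio of 24 gene pairs from gene TPM (black circles), TPM of coding transcripts (blue squares), counts per kilobase of the longest coding transcript (green diamonds) and counts without length (red crosses), with the range within 2-fold shaded. For H2-Ab1 to H2-Aa the 4 marks lie together near 3, while for Nlrc5 to Ciita they spread from 0.32 to 4.06.

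Between the 2 libraries, after scaling of counts, 0 of 10 members were more than 2-fold apart, against 6.4% of the 13546 genes tested, too small a share for 0 of 10 to set the members apart. None was more than 1.5-fold apart, but most genes tested were not either. The marker Gata1 lay just inside 1.5-fold (log2 difference −0.58, replicate 1 minus replicate 2), and 80.6% of genes tested differed by less. So this threshold does not set the members apart. Of the members, 4 of 10 differed by more than the median gene, whose log2 difference was 0.254 in size. That is near the share any median gives by definition. Among members Tap2 differed most, higher in replicate 2 by 1.33-fold (log2 difference −0.41, replicate 1 minus replicate 2). H2-K1 was also higher in replicate 2, at −0.27, while Cd74 (0.31) and B2m (0.29) were higher in replicate 1. The other 6 lay between −0.06 and 0.04. The median difference was −0.037 over class I and 0.0025 over class II, beside 0.0018 over all genes tested. The number of members higher in each library followed the scaling, at 5 and 5 here and at 3 in replicate 1 and 7 in replicate 2 from TPM, where the median of all genes was −0.099, and at 2 and 8 from library totals alone, where it was −0.056. Tap2, H2-K1, Cd74, B2m, H2-D1, H2-Aa and H2-Eb1 kept their direction under each of the 5 scalings or settings tried, and Tap1, H2-Ab1 and Ciita did not.

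Markers of other cell types differed between the libraries to unequal degrees. Over all genes tested, 50.2% were higher in replicate 1, and 6.4% were more than 2-fold apart in either direction. Of 7 B cell markers tested, 7 were higher in replicate 1, 3 of them more than 2-fold, and their summed TPM over all 10 was 103 in replicate 1 and 47.3 in replicate 2. By mean TPM Cd79a, of the B cell receptor, was highest at 32.3 and 11.7, followed by Pax5, the B lineage factor, at 24.5 and 6.19, and Cr2 had no counts. The 8 dendritic cell markers summed to 17.9 and 14.4, with Batf3 at 12.4 and 9.25, Itgax at 1.89 and 2.03 and no counts of Xcr1. However, 4 of the 6 tested were higher in replicate 2, not far from the share of all genes. Past 2-fold were Ccr7, higher in replicate 1 (log2 difference 2.99), and Clec9a, higher in replicate 2 (−1.42), both named after their values were seen. The 8 macrophage markers summed to 40.8 and 35.3, with Csf1r at 27.3 and 16.4 and C1qa at 3.94 and 6.14. The 6 T cell markers summed to 7.62 and 9.29, with Lck at 6.47 and 7.90 and Cd4 at 0.430 and 0.930. Granulocyte-monocyte markers were higher in replicate 1 in 5 of 5, and megakaryocyte-erythroid markers were higher in replicate 2 in 7 of 8, with Zfpm1 at 417 and 681 and Itga2b at 115 and 211. The summed TPM of the B cell markers differed by 2.18 times. In scaled counts their median log2 difference (replicate 1 minus replicate 2) was 0.88 over the 7 tested. On that same scale the difference was 0.31 for Cd74, 0.01 for H2-Ab1, −0.04 for H2-Aa and −0.06 for H2-Eb1. The part of these other cell types in the class II level was not tested.

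Of the related genes, 3 of 55 tested were more than 2-fold apart, a share near the 6.4% of all genes. They were Hfe, an iron regulator, at 14.8 and 8.01 TPM, and H2-T24 at 2.07 and 0.950 and Mr1, which presents vitamin metabolites, at 0.690 and 0.330, the last 2 named after their values were seen. Their log2 differences in scaled counts were 1.03, 1.09 and 1.04 in that order, each just past 2-fold. From TPM that of Hfe was 0.89, below 2-fold. H2-Q7 differed by −0.66 and H2-Q6 by −0.56 on the log2 scale, both higher in replicate 2 as H2-K1 was. Among regulators, Ifngr2 (0.95) and Irf8 (0.93) were farthest apart, both higher in replicate 1. In the loading genes Calr (0.52) and Pdia3 (0.35) were higher in replicate 1, and in the class II list H2-Ob (−0.57) was higher in replicate 2 and Ifi30 (0.45) in replicate 1.

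**Figure D5:**
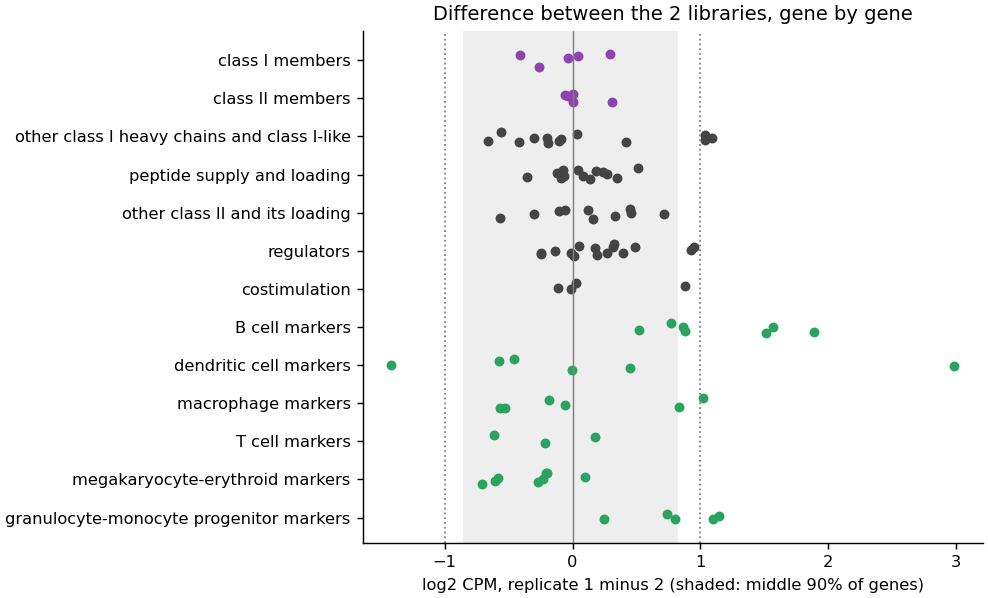
Log2 difference in CPM, replicate 1 minus replicate 2, for each gene of the members (purple), the 5 related lists (grey) and the cell type markers (green), with the middle 90% of all genes tested shaded (−0.85 to 0.82) and dotted lines at 2-fold. All 10 members lie inside the shaded range, while all 7 B cell markers tested lie to the right of 0.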

How the data were processed

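Both libraries were analysed from their gene and transcript tables. Per the labels, poly(A) RNA was used with assembly mm10, and a deposited text file names GENCODE M4. Aligner, quantification program and versions: not given in the sources used here. Expected counts, in which reads fitting several features are divided, were deposited for genes and transcripts with TPM and FPKM derived from them, per the file headers. The deposited percent column is each transcript's share of its gene, and the deposited interval bounds, treated as a score, cover the posterior mean TPM within 1 library at a level not stated. TPM can lie outside its own interval, as for H2-K1.

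Symbols and coordinates came from GENCODE M21 (GRCm38). Rounded expected counts were scaled by TMM in edgeR 4.0.16 (R 4.3.3; filterByExpr, 13546 genes, prior count 2). An intercept-only fit gave a biological coefficient of variation of 21.8%. The step was tested on simulated data with less spread than these libraries, so that test does not cover the spread seen here. Spread was set beside DESeq2 1.42.0 size factors. Other steps used Python 3.11.15, numpy 2.4.6 and pandas 2.3.3. Levels used a pseudocount of 1 and pair ratios 0.01. Totals were 79539457 and 65305321 counts, so 3 counts are 0.0377 and 0.0459 CPM. No molecular identifiers are mentioned. Members and lists were chosen with earlier results of these data known. The text names all members, all genes of the pairs, of each list the 3 highest and 2 lowest by mean TPM and the 2 farthest apart at a mean TPM of 5 or more, and of each marker list the 2 highest and those with no counts. Alternatives changed threshold, unit, pseudocount, scaling, filter and fold, or left out 1 library.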

Additional observations from a re-analysis of the deposited data

How the results depend on the processing

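Detection of the members held at 10 of 10 except at a TPM of 5, where Ciita fell out and 9 remained. The count of related genes detected ranged from 38 of 65 at a TPM of 5 to 53 at 0.5. The class I minus class II log2 level, 2.76, kept its sign throughout and moved by more than the spread of the libraries in 5 settings: 3.69 in CPM without length, 3.12 as a mean over members, 4.57 for chains alone, 2.52 over coding transcripts and 2.43 per kilobase of the longest coding transcript, the last 2 added after seeing the data. Leaving out a library gave 2.69 to 2.88. No member passed 2-fold between libraries under any setting, nor 1.5-fold. In the main setting most genes tested passed neither threshold. The class I shift was −0.095 by library totals, −0.14 by the log2 ratio of TPM and −0.076 as a mean over members, and the class II shift was −0.099 by the log2 ratio of TPM. Pairs called fell from 17 to 11 at 4-fold. Each of the 8 settings other than fold kept between 12 and 17 of the 17. Ifngr1 to Ifngr2 turned to −0.15 in counts without length. Leaving out replicate 1 lost Ctss to Ctsl (log2 ratio 0.63) and gained Tap1 to Tap2, and leaving out replicate 2 gained Rfx5 to Rfxank (1.12). Leading transcripts were the same in 7 of 7 by counts. The cause of these changes was not tested. Ciita rests on 573 and 489 counts, H2-K1 on 123311 and 126694. No paired analysis was possible because there is 1 group.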
